A study of Mus musculus with 2 samples.

Results

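The group described here is made up of 5 microRNA (miRNA) precursors: miR-21a (mmu-mir-21a in the files), miR-146a (mmu-mir-146a), miR-146b (mmu-mir-146b), miR-132 (mmu-mir-132) and miR-212 (mmu-mir-212), which are known to be induced through NF-kB, STAT3 or CREB signalling. They were chosen by name and not by their values, though earlier results of these data were known. All 5 were found among the 1187 precursors (hairpins) counted in each library. The samples were ischemic mouse hindlimb muscle, taken 1 day after the femoral artery had been removed by surgery. The hypercholesterolemic library (HC) was made from animals of genotype ApoE-/-, which lack apolipoprotein E and were fed a diet rich in fat. The normocholesterolemic library (NC) was made from C57Bl/6 animals of control genotype. The labels name no strain for HC and no diet for NC, and give no age and no number of pooled mice. The parts of genotype, strain and diet therefore cannot be told apart, and the muscle of both libraries was ischemic, so no comparison with uninjured muscle was made. The comparison describes how the miRNAs of ischemic muscle differ between the hypercholesterolemic and the normocholesterolemic library, and does not isolate cholesterol.

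These miRNAs report on signalling in tissue that is inflamed or under repair. NF-kB, switched on by Toll-like receptors and cytokines, induces miR-146a, which represses the adaptor TRAF6 and the kinase IRAK1 of the same route and so acts as a brake on it. STAT3 and AP-1 raise miR-21, which is abundant in many cell types and known for the repression of PDCD4. The transcription factor CREB drives the primary transcript that holds both miR-132 and miR-212. A miRNA is cut from a hairpin, whose arms are called 5p and 3p, and it finds its targets mainly through its seed, bases 2 to 8 from the 5′ end.

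The mature sequences show which members can act on the same targets. They are given 5′ to 3′ from RefSeq (GRCm38.p6) for the arm that usually carries the activity, with the seed in capitals.
miR-21a-5p: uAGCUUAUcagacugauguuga
miR-146a-5p: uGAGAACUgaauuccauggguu
miR-146b-5p: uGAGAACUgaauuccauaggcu
miR-132-3p: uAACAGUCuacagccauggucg
miR-212-3p: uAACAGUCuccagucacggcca
The members fall into 3 seed groups. miR-146a-5p and miR-146b-5p are identical at 20 of 22 positions and differ by G18A and U21C, counted from the 5′ end with the base of miR-146a first, so their first 17 bases are the same. miR-132-3p and miR-212-3p share 17 of 22 positions and the first 9, with A10C, C14U, U17C, U20C and G22A between them (miR-132 first). No other mature sequence in the RefSeq table carries either of these seeds. The miR-21a-5p seed recurs in miR-21c, which differs from miR-21a-5p by A16G, G18A, U19C, U20A and G21A (miR-21a first). The miR-21c and miR-21b hairpins had 0 counts in both libraries, which allows up to 0.0918 CPM (counts per 1e6 counts of library size, scaled by the trimmed mean of M-values, TMM) in HC and 0.0717 CPM in NC.

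The hairpins of the miR-146 pair are shown because the counts were made per hairpin and add its arms, which are in capitals.
miR-146a: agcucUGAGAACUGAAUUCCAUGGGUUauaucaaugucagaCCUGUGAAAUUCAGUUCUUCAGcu
miR-146b: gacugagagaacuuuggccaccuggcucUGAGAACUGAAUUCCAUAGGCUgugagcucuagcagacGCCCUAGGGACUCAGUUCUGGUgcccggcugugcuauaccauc
Their 5p arms are near copies, whereas the 3p arms are identical at only 4 of 22 positions. The 3p seeds, CUGUGAA in miR-146a and CCCUAGG in miR-146b, are not shared. How each count divides between the arms was not measured here.

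Of the 5 hairpins, 4 lie on chromosome 11 in mm10, at 3 separate places. miR-21a (chromosome 11, 86584067 to 86584158, minus strand) lies in exon 12 of Vmp1, in its 3′ untranslated part by GENCODE M21; Vmp1 encodes a membrane protein of autophagy. miR-212 (75173388 to 75173478) and miR-132 (75173682 to 75173747) sit 203 bases apart on the plus strand, both in an intron of the noncoding transcript 1700016P03Rik. miR-146a (43374397 to 43374461, minus strand) overlaps no other annotated gene. miR-146b lies on chromosome 19 (46342762 to 46342870, plus strand), in an intron of Mfsd13a. The seed pair of the miR-146 family thus comes from separate chromosomes, and the seed pair miR-132 and miR-212 from a single locus.

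The HC library held 31198050 counts over the precursors and the NC library 43848576. Each group is 1 library, so the spread between animals could not be estimated and no test was run. All intervals are exact 95% intervals of counting error only, and they treat each count as a separate molecule. PCR copies of a molecule cannot be told from separate molecules here, so the intervals may be too narrow. Of the 10 muscle markers listed, 9 had a mean of at least 10 CPM, and 5 of these were higher and 4 lower in HC by the counting interval. miR-133a-1, the most abundant of them, had 65127 CPM in HC and 65383 in NC, but log2 folds of HC over NC ran from -0.20 for miR-133b to 0.47 for miR-1a-1, 0.55 for miR-208b and 0.63 for miR-499. Whether muscle content has a part in the values below was not tested. The liver miRNA miR-122 was near the limit of detection, with 7 counts (HC) and 9 counts (NC). Another scaling moves every log2 fold of HC over NC alike, by 0.13 upward with plain totals and by 0.11 downward (-0.11) with the authors' own denominators, so a log2 fold within that range of 0 has no firm direction. In tissue RNA, fewer cells of a type and less RNA per cell cannot be told apart.

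miR-21a (mmu-mir-21a) was by far the most abundant member. It had 170293 counts in HC, or 5210 CPM (5186 to 5235), and 229749 counts in NC, or 5489 CPM (5467 to 5511). It was the precursor of rank 22 by counts in HC and of rank 21 in NC. The levels of the libraries lay close together, with a log2 fold of -0.08 (-0.08 to -0.07). That sign did not hold, since the value was 0.06 with plain totals, so miR-21a has no firm direction.

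miR-146b, the less studied member of the NF-kB-responsive pair, stood next in level and showed the clearest difference. It had 38424 counts in HC, or 1176 CPM (1164 to 1187), against 65542 counts in NC, or 1566 CPM (1554 to 1578). NC was the higher library, by 1.33-fold (1.32 to 1.35), a log2 fold of HC over NC of -0.41 (-0.43 to -0.40). It was lower in HC under all 5 scalings tried, from -0.28 with plain totals to -0.53 with the authors' denominators. Among the 222 precursors whose mean over both libraries reached 10 CPM, the fold of miR-146b had rank 16 from the lowest.

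miR-146a, the better known brake on NF-kB, was scarcer and did not share this difference. It had 8040 counts in HC, or 246.0 CPM (240.7 to 251.4), and 9364 counts in NC, or 223.7 CPM (219.2 to 228.3). HC was the higher library by 1.10-fold (1.07 to 1.13), a log2 fold of 0.14 (0.09 to 0.18). With the authors' denominators the log2 fold was 0.02 and its interval held 0, so the value has no firm direction.

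The CREB-driven pair was low in both libraries. miR-132, known from neurons and from growing vessels, had 974 counts in HC, or 29.8 CPM (28.0 to 31.7), and 1091 counts in NC, or 26.1 CPM (24.5 to 27.7). Its log2 fold was 0.19 (0.07 to 0.32). miR-212 had 249 counts in HC, or 7.62 CPM (6.70 to 8.63), and 257 counts in NC, or 6.14 CPM (5.41 to 6.94). Its log2 fold was 0.31 (0.05 to 0.57). HC was thus the higher library for both, by 1.14-fold (1.05 to 1.25) for miR-132 and by 1.24-fold (1.04 to 1.48) for miR-212, and the interval of miR-212 was the widest of the 5. With the authors' denominators the log2 folds were 0.08 for miR-132 and 0.20 for miR-212 and both intervals held 0, so these directions are not firm either. The sum of both was 37.4 CPM in HC and 32.2 CPM in NC, a log2 fold of 0.22 (0.10 to 0.33).

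**Figure D1:**
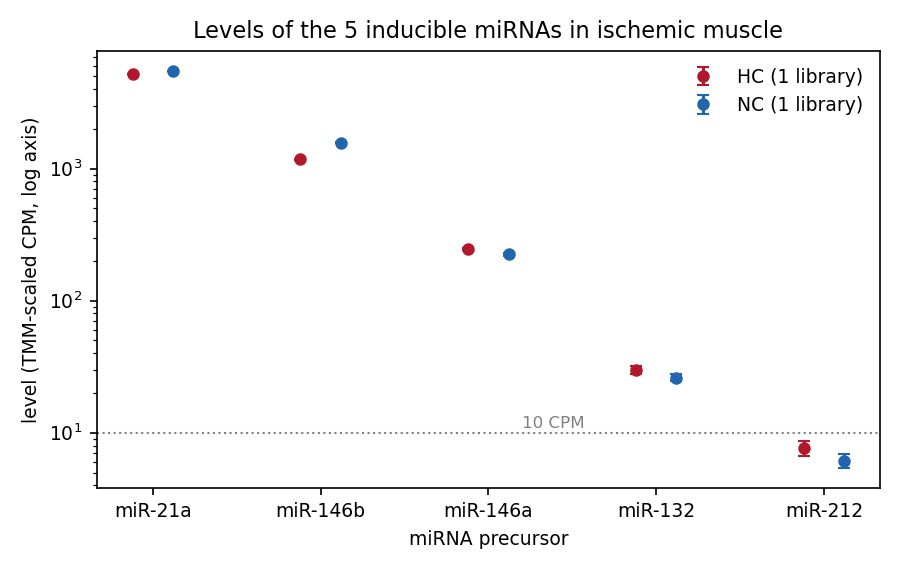
TMM-scaled CPM (log axis) of each of the 5 precursors in the HC and NC libraries, 1 point per library with its exact 95% Poisson interval, which is smaller than the point for abundant miRNAs. The levels run from 5210 CPM for miR-21a to 7.62 CPM for miR-212 in HC, and miR-212 alone lies below the dotted line at 10 CPM.

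The order of the levels was the same in both libraries: miR-21a, miR-146b, miR-146a, miR-132 and miR-212. No neighbours in that order had overlapping counting intervals. Division of each CPM by the length of its hairpin left the order as it was. The hairpins span only 65 to 109 bases, too little to reorder levels this far apart, so this step could not test the order. Whether the library kit recovers these different sequences equally was not tested. From the highest to the lowest member the level spanned 684-fold in HC and 894-fold in NC. Together the 5 took 0.699% of all precursor counts in HC and 0.698% in NC. Copies and overlapping precursors had nearly the same counts, such as 2128550 for miR-133a-1 and 2127966 for miR-133a-2 in HC. The totals thus appear to hold the same reads more than once, so these are shares of counts and not of reads. Shares with each read counted once were not computed, and their near equality may not hold there. miR-21a alone supplied 78.1% of the members' counts in HC and 75.1% in NC.

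The differences of the members between HC and NC were of the size found over the whole library. Of the 5 members, 4 had a mean of at least 10 CPM, and miR-212 fell below it. None of these 4 differed by at least 2-fold, where 2.25% of the 222 compared precursors did, and none by 1.5-fold, where 7.21% did. At 1.25-fold 1 of the 4 was past the limit, miR-146b, against 22.5% of compared precursors. The counting interval excluded equality for 4 of 4 members, against 83.3% of compared precursors, with 2 of 4 higher in HC (39.6% of compared precursors) and 2 of 4 lower (43.7%). These shares rest on 4 precursors and are not a result about the members, because the intervals of most precursors exclude equality at this depth. Over all compared precursors the split was 88 higher and 97 lower with TMM, 135 and 47 with plain totals, and 55 and 131 with the authors' denominators. The median absolute log2 fold was 0.17 for the 4 members and 0.16 for the 222 compared precursors, and the median signed log2 fold was 0.03 and 0.00.

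**Figure D2:**
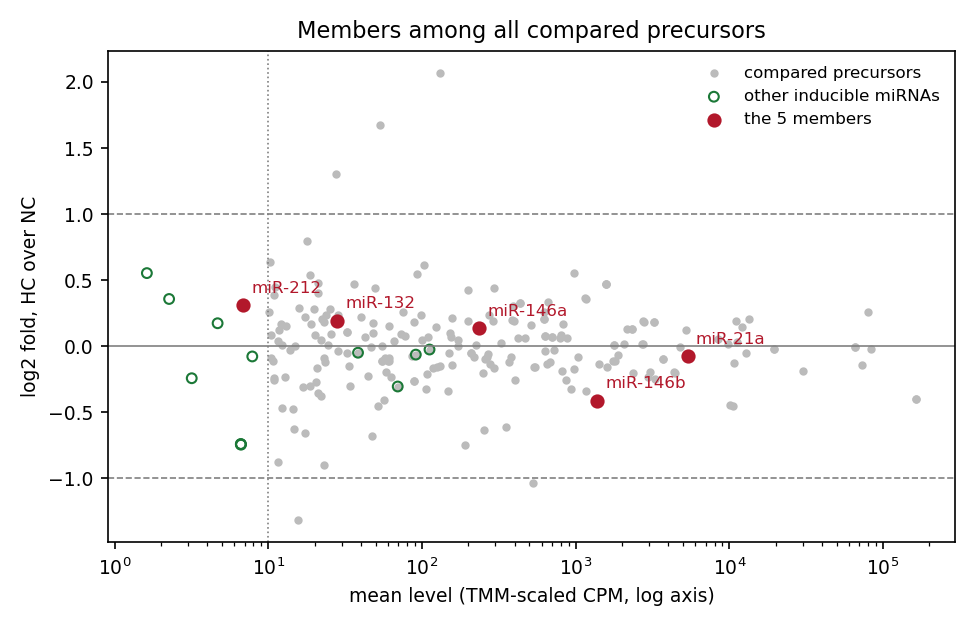
Log2 fold of HC over NC against mean level (TMM-scaled CPM, log axis), with the 222 compared precursors as grey points, other inducible miRNAs as open circles and the 5 members in red. Dashed lines mark 2-fold and the dotted line 10 CPM. All 5 members lie between the dashed lines, with miR-146b lowest at -0.41 and miR-212 highest at 0.31.

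**Figure D3:**
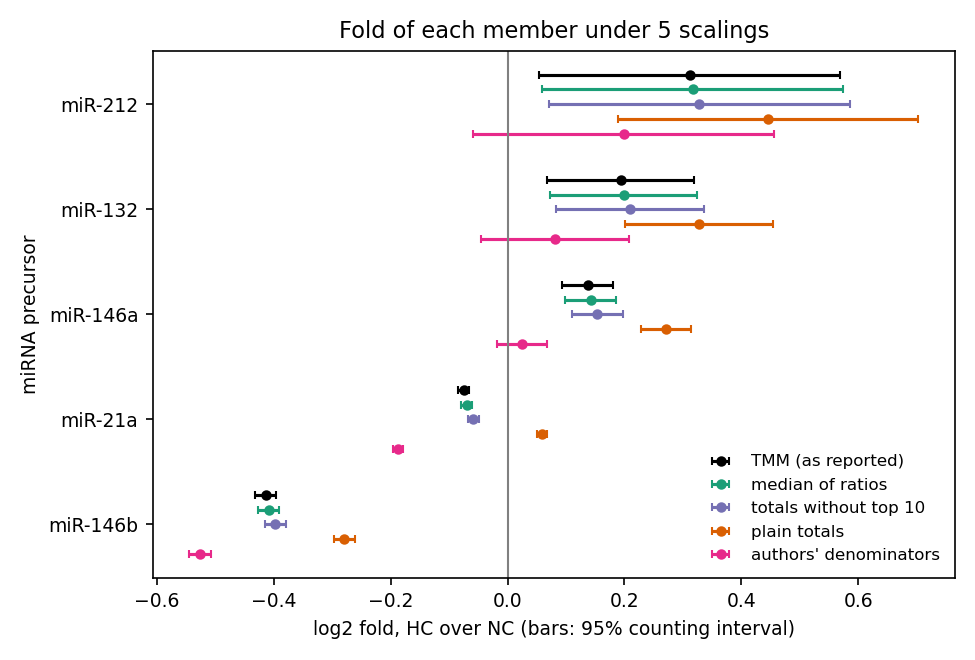
Log2 fold of HC over NC for each member under 5 scalings, with 95% counting intervals. The points of miR-146b stay below 0, from -0.28 to -0.53, whereas those of miR-21a lie on both sides of 0.

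A comparison of members with each other inside the libraries does not depend on the scaling. Of the 10 pairs of members, 7 had a counting interval for the difference of their log2 folds that excluded 0. miR-146b was lower than each of the other 4 members in HC relative to NC. The difference of log2 folds was 0.34 (0.32 to 0.36) for miR-21a minus miR-146b. It was 0.55 (0.50 to 0.60) for miR-146a minus miR-146b, 0.61 (0.48 to 0.73) for miR-132 minus miR-146b and 0.72 (0.47 to 0.98) for miR-212 minus miR-146b. miR-21a in turn was lower than miR-146a by a difference of 0.21 (0.17 to 0.26), and it also lay below miR-132 and miR-212. The 3 pairs among miR-146a, miR-132 and miR-212 had intervals that held 0, with differences of 0.06 to 0.17, and up to 0.44 lay within these intervals. These intervals hold for the 2 libraries and give no measure of the spread between mice.

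**Figure D4:**
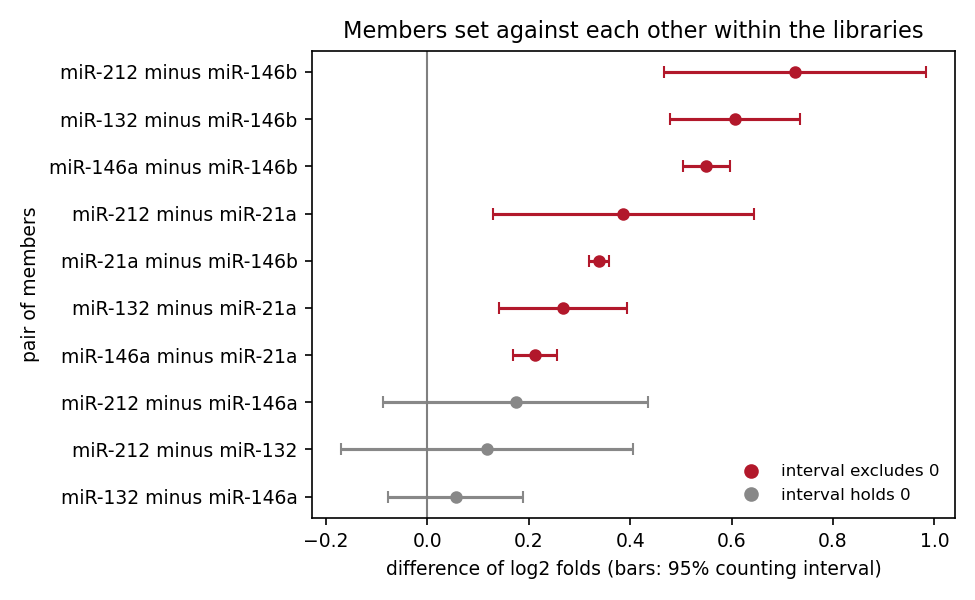
Difference of log2 folds (HC over NC) for all 10 pairs of members, with exact 95% counting intervals. All 4 pairs with miR-146b lie at 0.34 or above, and the 3 grey pairs, whose intervals hold 0, are those among miR-146a, miR-132 and miR-212.

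The balance within the 2 seed pairs was compared as a share of counts, which no scaling changes. miR-146a supplied 17.3% (17.0 to 17.7%) of the counts of the miR-146 pair in HC and 12.5% (12.3 to 12.7%) in NC. miR-146b exceeded miR-146a by 4.78-fold in HC and by 7.00-fold in NC, so most of the pair's counts were assigned to the chromosome 19 hairpin in both. The 5p arms differ only at positions 18 and 21, and the handling of reads that align to both hairpins is not known. How far reads of either hairpin were counted at the other was not tested. The sum of the pair was 1422 CPM in HC and 1790 CPM in NC, a log2 fold of -0.33 (-0.35 to -0.32), which is nearer to that of miR-146b. For the clustered pair, miR-132 supplied 79.6% (77.3 to 81.9%) in HC and 80.9% (78.7 to 83.0%) in NC, and these intervals overlap. The difference of log2 folds for miR-212 minus miR-132 was 0.12 (-0.17 to 0.41), so a difference between them was not detectable at this depth.

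How far seed partners part in these libraries was read from other pairs of compared precursors whose matched mature sequences share a seed. Pairs of copies or of overlapping precursors were left out. Mature sequences were not matched for every precursor. The matching by name did not cover let-7 names, so the pairs of the let-7 family are missing. The 85 pairs that were read, many of which have a precursor in common, had a median absolute difference of 0.17 between their log2 folds. The 0.55 of miR-146a and miR-146b was reached or passed by 9 of the 85 (10.6%). All 9 involved miR-92b, miR-181b or miR-15b. The share holds only for the pairs read, and the missing let-7 pairs could change it. Of let-7 precursors within 10 kb of each other on the same strand, let-7d and let-7f-1 differed by 0.61, which is above 0.55. The others lay below 0.55: let-7a-1 differed by 0.46 from let-7f-1 and by 0.15 from let-7d, and let-7b by 0.08 from let-7c-2. For precursors within 10 kb of each other on the same strand, 87 compared pairs had a median absolute difference of 0.21. That is above the 0.12 of miR-132 and miR-212, a pair not among the 87 because miR-212 fell below 10 CPM. The strand was known only for hairpins matched by position, so some clusters, such as miR-143 with miR-145a, are missing from the 87.

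**Figure D5:**
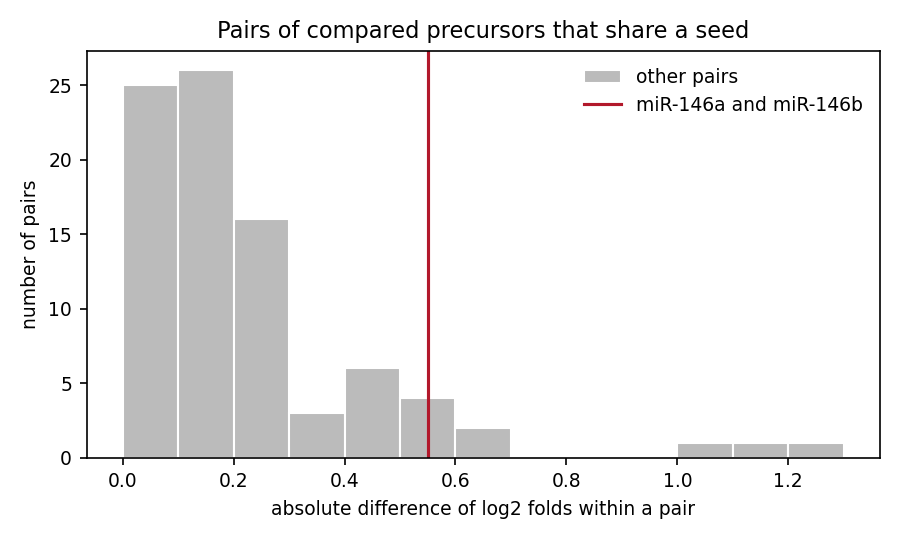
Histogram of the absolute difference between the log2 folds (HC over NC) of 2 compared precursors that share a seed, over 85 pairs, with the miR-146 pair as a red line at 0.55. Only precursors with a matched mature sequence are shown, and the let-7 family is missing. Most of the pairs shown lie to the left of the line and 9 to its right.

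Other miRNAs described as induced by, or acting in, the same signalling routes were mostly low in level and lay on both sides of equality. All 12 precursors of this list were counted, and 4 had a mean of at least 10 CPM. Of these 4, 0 were higher and 1 was lower in HC by the counting interval, with a median log2 fold of -0.06 against 0.00 for all compared precursors. miR-155, induced with miR-146a by NF-kB in macrophages and lymphocytes, had 1231 counts in HC and 1632 in NC, or 37.7 and 39.0 CPM, a log2 fold of -0.05 (-0.16 to 0.06). miR-221 lay at -0.03 (-0.09 to 0.04), while its cluster partner miR-222 was lower in HC at -0.31 (-0.39 to -0.23). miR-301a, which can raise NF-kB activity, lay at -0.06 (-0.13 to 0.01).

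Below 10 CPM, 8 precursors of that list remained. miR-9, induced by NF-kB in monocytes and abundant in neurons, had 162 counts in HC and 347 in NC for miR-9-1, a log2 fold of -0.74 (-1.02 to -0.47). The miR-9-2 and miR-9-3 precursors had nearly the same counts and cannot be separated from it. miR-147, a Toll-like receptor response miRNA of macrophages, had 83 counts in each library and a log2 fold of 0.36 (-0.10 to 0.81). miR-187, linked to the IL-10 response, had 63 counts in HC and 55 in NC, a log2 fold of 0.55 (0.01 to 1.10). miR-224, miR-134 and miR-184 had intervals that held 0.

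Markers of leukocytes, which enter ischemic muscle and also contain miR-21 and the miR-146 pair, stood at nearly the same summed level in both libraries, with members on both sides of equality. The list named 5 precursors, of which 4 are in the files, and none was at 0. With the overlapping miR-142a and miR-142b counted once, they summed to 2266 CPM in HC and 2259 CPM in NC. miR-142a, found in all leukocytes, lay at a log2 fold of 0.01 (-0.01 to 0.03). The neutrophil-enriched miR-223 was higher in HC at 0.44 (0.40 to 0.48), and the lymphocyte-enriched miR-150 was lower at -0.75 (-0.80 to -0.70). Of these markers, miR-150 was lower in HC, as miR-146b was, whereas miR-223 was higher and the interval of miR-142a held 0. Whether leukocyte content has a part in the value of miR-146b was not tested.

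The precursors most like each member were taken as the nearest ones by level in the 2 libraries together (Euclidean distance over log2 CPM), a likeness that rests on 2 values. For miR-21a these were miR-191 (distance 0.15) and miR-30d (0.23). For miR-146b they were let-7g (0.21) and miR-378d (0.32), of which miR-378d had a log2 fold of -0.34. For miR-146a they were miR-195a (0.13) and miR-322 (0.22). miR-132 lay closest of all to its neighbour, miR-421 (0.04), at 30.7 CPM in HC and 26.0 in NC, followed by miR-17 (0.17). For miR-212 they were miR-377 (0.20) and miR-329 (0.21).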

How the data were processed

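Small RNA of 2 libraries was analysed, 1 HC and 1 NC, grouped by the phenotype labels. Libraries were made with the TruSeq small RNA kit after Trizol and mirVana extraction, per the labels' protocols. HTSeq 0.5.4, TopHat2 2.0.10, CASAVA 1.8.2 and mm10 are named in the submitters' processing notes. No source used here gives the adapter trimming, the handling of multiply aligned reads or the miRNA annotation. The authors deposited whole-number read counts per precursor, both arms added. A deposited column headed RPM is a signal the authors scaled, a constant multiple of the count (denominators 27222821 in HC and 32252170 in NC), used only as an alternative.

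Rows that name no precursor were left out. Counts were scaled by TMM (edgeR 4.0.16, R 4.3.3, no edgeR test) and expressed as CPM of scaled library size. Log2 folds carry no pseudocount and have exact conditional binomial intervals, shares have Clopper-Pearson intervals, levels have exact Poisson intervals and differences of log2 folds have exact conditional odds ratio intervals (scipy 1.17.1). Intervals and the limit for a count of 0 (3 counts per library) cover counting error only. A precursor counted as different at a mean of at least 10 CPM, a fold of at least 2 and an interval excluding equality. Intervals and calls were run on simulated Poisson counts with known library sizes, the model that the intervals assume. That check does not cover PCR copies, the spread between animals or errors of scaling. The text names the members, the listed miRNAs and the 2 nearest precursors of each member. The precursors named for the pairs with a shared seed were chosen after their values were seen. Members and lists were chosen with earlier results of these data known. Mature sequences in RefSeq were matched for 1006 of 1187 precursors, including all 5 members. No let-7 precursor was matched, because the matching by name did not cover let-7 names. Hairpins were matched by position for 970 of 1187. Alternatives were other scalings, CPM minimums, a 1.5-fold limit and 1 added count.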

Additional observations from a re-analysis of the deposited data

How the results depend on the processing

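With plain totals the log2 fold of miR-21a turned from -0.08 to 0.059, and those of miR-146a, miR-146b and miR-132 were 0.27, -0.28 and 0.33. With the authors' denominators, miR-21a was -0.19, miR-146a 0.025 and miR-146b -0.53. Without the 10 most abundant precursors in the totals, miR-21a was -0.059. Members with an interval below equality numbered 1 with plain totals instead of 2, and those above it numbered 0 with the authors' denominators and 1 at a CPM minimum of 50 instead of 2. These moves follow from the shift that a scaling gives to every fold and, at 50 CPM, from the loss of miR-132. Median-of-ratios size factors (DESeq2 1.42.0) and 1 added count moved no member's log2 fold outside its counting interval. No member reached 2-fold under any of these alternatives, or 1.5-fold with TMM scaling. Precursors past the 2-fold limit numbered 5, against 13 at a minimum of 1 CPM, 33 with no filter and 3 at 50 CPM, and 16 were past 1.5-fold. In the list of other inducible miRNAs, intervals below equality numbered 1 with TMM scaling and 4 with the authors' denominators. They also numbered 4 at a minimum of 1 CPM or no filter, where miR-9-1, miR-9-2 and miR-9-3 were added, which cannot be separated. Intervals above equality numbered 0, against 2 with plain totals and 1 at 1 CPM or no filter. The median of that list was 0.08 with plain totals and -0.17 with the authors' denominators. Pair shares were equal when taken from the authors' scaled column, an alternative chosen after seeing the data. With 1 library per group, no replicate could be left out. miR-212, at 249 and 257 counts, is limited by depth.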
